A study of Mus musculus with 24 samples.

Results

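The RGS genes encode regulators of G protein signalling, and 8 of them were followed here: Rgs1, Rgs2, Rgs3, Rgs10, Rgs11, Rgs14, Rgs16 and Rgs19. They were found by their Ensembl identifiers among the 39056 genes of the count table, and all 8 passed the filter on low counts, as did 18789 genes in all. The libraries come from female mice of the NZBWF1/j strain, a lupus-prone hybrid, aged 23 weeks at the first injection. Treated mice were given recombinant mouse OX40L, which engages the T cell costimulator OX40, and mouse JAG1, which engages Notch, each at 2 mg per kg of body weight, by 3 weekly intraperitoneal injections. Control mice were given PBS, and cells were taken at week 26. All mice were of the same strain, sex and age, with no engineered allele. CD4+ cells were sorted by surface protein into conventional cells (Tconv, CXCR5-GITR-), regulatory cells (Treg, CXCR5-GITR+), follicular helper cells (TFH, CXCR5+PD1Hi with no or low GITR) and follicular regulatory cells (TFR, CXCR5+PD1Hi GITRHi). There were 3 libraries in each of the 8 groups of subset and treatment, 24 in all. The labels name neither the organ nor the mouse behind a library. So p-values rest on the spread between libraries of a group, pooled over the 8 groups, and that spread may be technical.

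Receptors that couple to heterotrimeric G proteins, among them the chemokine, prostaglandin and sphingolipid receptors of lymphocytes, load GTP onto a G protein alpha subunit, which then parts from the beta and gamma subunits. RGS proteins speed the hydrolysis of that GTP and so end the signal. In lymphocytes they are best known for limiting chemokine-driven migration. Rgs1, Rgs2, Rgs3 and Rgs16 belong to the R4 subfamily, made up largely of the RGS domain with short flanks. Rgs10 and Rgs14 belong to R12, Rgs19 to RZ, and Rgs11 to R7, whose proteins pair with the beta subunit Gnb5.

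The bases just before the starts of Rgs2, which fell with treatment in 3 subsets, and of Rgs16, which rose in 2, are shown for comparison. Each is the 250 bases upstream of the RefSeq start (GRCm38.p6), read along the gene's strand: chr1:144004150-144004399 on the minus strand for Rgs2 and chr1:153740103-153740352 on the plus strand for Rgs16. Capitals mark matches, on either strand, to the core of the cAMP response element TGACG, the AP-1 site TGANTCA or the NFAT core GGAAA.
Rgs2: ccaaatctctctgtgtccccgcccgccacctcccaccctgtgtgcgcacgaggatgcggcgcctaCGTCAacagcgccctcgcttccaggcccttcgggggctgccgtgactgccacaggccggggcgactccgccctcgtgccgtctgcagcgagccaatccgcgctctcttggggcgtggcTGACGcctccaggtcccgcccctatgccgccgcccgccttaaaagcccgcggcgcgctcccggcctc
Rgs16: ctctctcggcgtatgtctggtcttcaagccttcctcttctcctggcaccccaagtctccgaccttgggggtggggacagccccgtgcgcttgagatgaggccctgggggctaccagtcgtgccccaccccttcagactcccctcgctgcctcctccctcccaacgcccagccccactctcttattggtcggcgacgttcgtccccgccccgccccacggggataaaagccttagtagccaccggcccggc
The Rgs2 window held 2 matches to TGACG and none to the other motifs. One lay on the other strand 185 to 181 bases before the start, and one on the gene's strand 67 to 63 bases before it, so they did not overlap. The Rgs16 window held no match to any of the 3. Among 32851 RefSeq windows of the same length, 17.8% held TGACG, 6.75% TGANTCA and 55.6% GGAAA on at least 1 strand. GC made up 72.4% of the Rgs2 window and 66.4% of the Rgs16 window, against a median of 52.4% over all windows. Windows were found for 5 of the 8 members, 8 windows in all, and none for Rgs1, Rgs11 or Rgs14. TGANTCA matched in none of the 8. GGAAA matched in 1 window of Rgs3 and 2 of Rgs19, and the Rgs10 window held none of the 3. A match is a string of letters and no measurement of binding.

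In broad terms, Rgs16 and Rgs1 set control Tconv cells apart from the other control subsets, and Rgs2 separated treated from control libraries within 3 of the 4 subsets. Rgs10 was highest in Tconv libraries of both treatments. In control mice Rgs16 was lowest in Tconv cells and higher in Treg, TFH and TFR cells, and Rgs1 followed the same split. After treatment Rgs2 was lower in Treg, TFH and TFR cells but not in Tconv cells, where Rgs1 and Rgs16 were higher. The level of a gene below is in CPM, its count scaled to a common library total with TMM factors, and comparisons between genes use RPKM, which divides CPM by the exonic length in kilobases. A gene is called changed at an adjusted p under 0.05 by edgeR's quasi-likelihood test, with adjustment over all genes tested. The test used 1 estimate of spread per gene for all 8 groups. Fitted to each group alone, the common coefficient of variation between libraries was 0.0751 in treated Tconv, 0.921 in control TFR and 1.04 in control TFH. The shared estimate may thus give p-values that are too small for control TFH and TFR cells and too large for tighter groups. In these sorted populations, fewer cells of a type cannot be told apart from less RNA per cell.

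**Figure D1:**
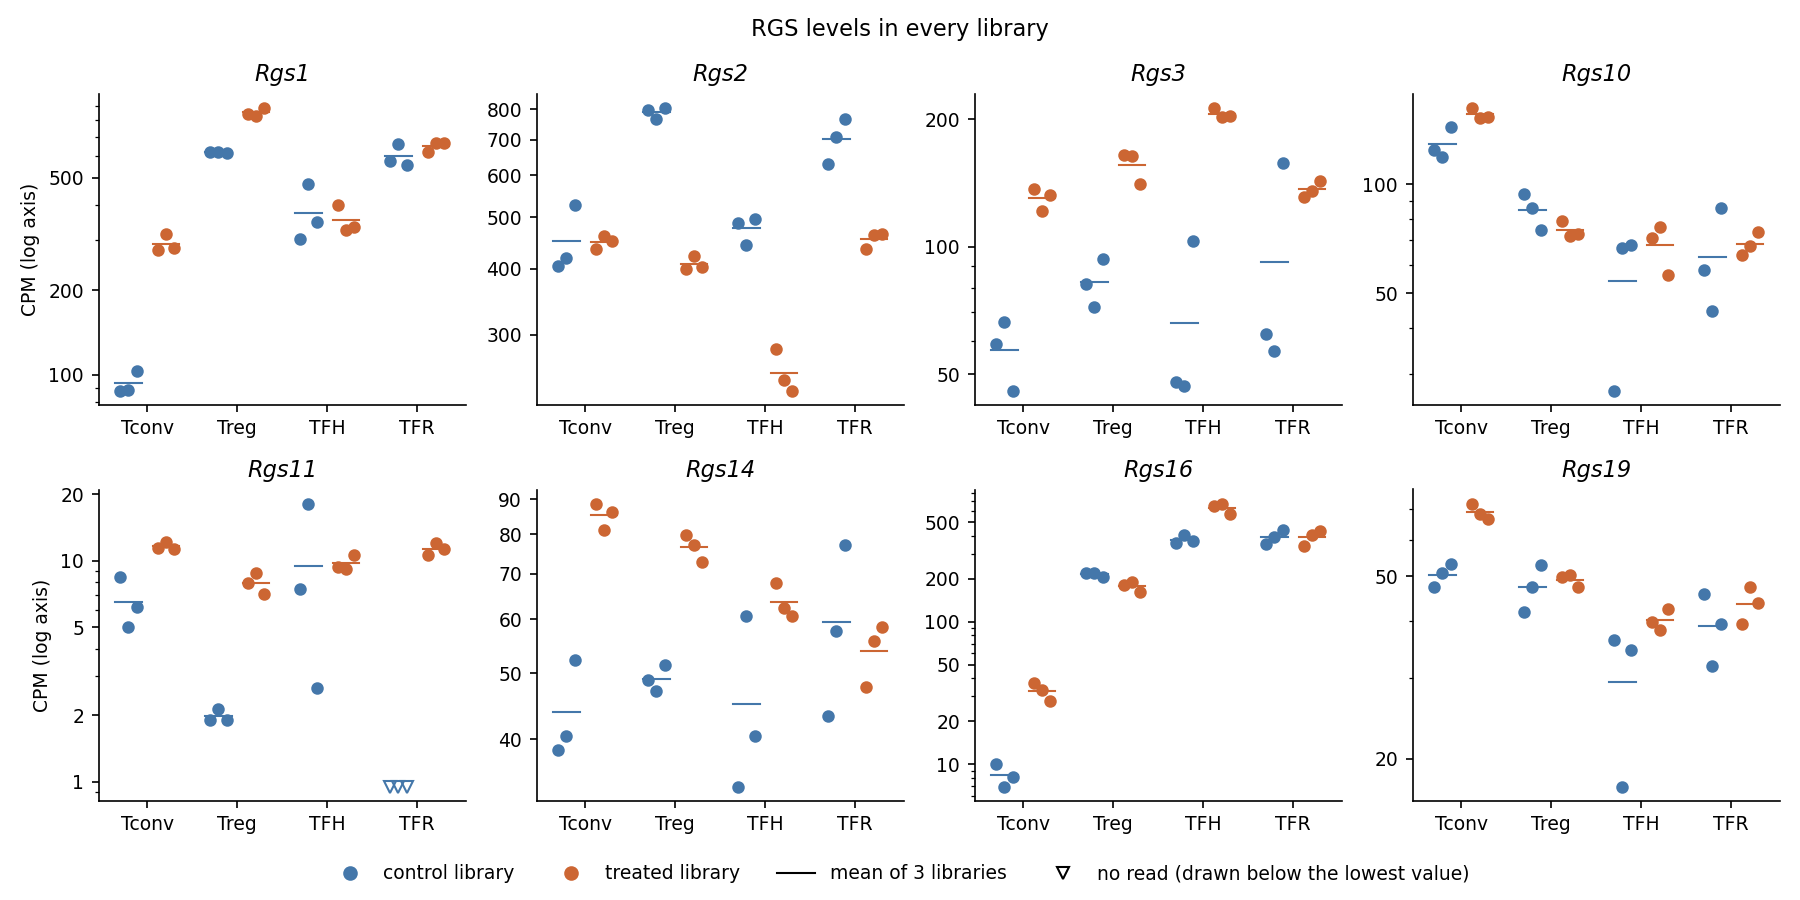
CPM of each of the 8 RGS genes (log axis, a different range in each panel) in every library, by subset, with control libraries in blue, treated libraries in orange and a line at the mean of 3 libraries. Rgs16 is lowest in the 6 Tconv libraries, Rgs2 is lower in treated than in control Treg, TFH and TFR libraries, and Rgs11 has no read in the 3 control TFR libraries.

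Totals ran from 2.54 to 53.8 M counts, and control TFH (2.54 to 15.2 M) and control TFR (4.85 to 9.62 M) libraries were the shallowest. Mitochondrial genes took 1.85 to 3.17% of counts in treated and 9.50 to 16.9% in control libraries, and treatment cannot be told apart from handling that differed between treated and control samples. The 4 T cell markers (Cd3e, Cd3g, Cd4 and Trac) summed to more in treated than control libraries of every subset, without overlap. The sums were 2650 to 2780 against 1150 to 1460 CPM in Tconv and 1750 to 1920 against 1550 to 1590 CPM in Treg cells. In TFH cells they were 1860 to 2110 against 1510 to 1660 CPM and in TFR cells 1810 to 2130 against 1300 to 1440 CPM. The part of this difference in the treatment results was not tested. The 4 regulatory markers followed the sort and summed to 96.1 to 114 CPM in Tconv, 460 to 587 CPM in TFH and 1410 to 2140 CPM in Treg and TFR libraries. The 5 follicular markers, led by Icos, set Tconv libraries apart (228 to 310 CPM). In controls they summed to 1046 to 1071 CPM in CXCR5- Treg, 1158 to 1275 CPM in TFH and 1301 to 1446 CPM in TFR libraries. In treated mice these sums were 727 to 736, 869 to 1065 and 835 to 963 CPM. Treg libraries thus lay lower within each treatment, but control Treg sums overlapped or passed those of treated TFH and TFR libraries. Icos alone averaged 728 CPM in control Treg and 355 CPM in treated TFH libraries. Transcripts of kidney cells stood out in 5 libraries, control Tconv 1 and 2, treated Treg 3, treated TFH 3 and treated TFR 1, where podocyte markers summed to 121 to 1116 CPM. These libraries held 24% of all reads and between 20.4% (Rgs2) and 25.8% (Rgs11) of each member's reads. The summed level of 6 B cell markers was higher in treated than control libraries of Treg (40.4 to 45.8 against 8.02 to 9.49 CPM), TFR (48.4 to 53.9 against 4.55 to 27.0 CPM) and Tconv cells (9.37 to 9.72 against 3.5 to 5.80 CPM), and overlapped in TFH cells. In Treg cells that sum rests on Cd22 (36.6 against 3.77 CPM), the 1 marker of 6 called, while the median log2FC of the 6 was -1.68. Cd22 also made up most of the sum in treated TFR (41.0 CPM, against 10.6 CPM in controls) and treated Tconv libraries (7.46 CPM). In control Tconv libraries the highest B cell marker was Cd79a at 2.17 CPM. The 4 plasma cell markers summed to more in the treated libraries of all subsets: 50.8 to 54.6 against 17.8 to 23.1 CPM in Tconv, 87.5 to 90.2 against 59.3 to 64.4 CPM in Treg, 211 to 264 against 27.5 to 44.0 CPM in TFH, and 258 to 286 against 66.9 to 89.4 CPM in TFR cells. Prdm1 led that sum in Treg (64.3 CPM treated, 51.1 CPM control) and TFR cells (159 and 67.9 CPM), and in control Tconv cells (13.5 CPM). Jchain led it in TFH cells (175 CPM treated, 18.6 CPM control) and in treated Tconv cells (31.1 CPM). Whether these transcripts came from B or plasma cells was not tested, nor was the part of such cells in the treatment results.

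Per exonic length, the makeup of the family differed between subsets. Rgs2 held 48.4 ± 1.74% of the summed RPKM of the 8 genes in control Tconv cells (SD, n = 3) and Rgs10 29.4 ± 0.818%, while Rgs16 held 1.41 ± 0.325%. In control Treg cells Rgs2 held 44.5 ± 0.990%, Rgs16 18.8 ± 0.695% and Rgs1 18.2 ± 0.208%. Rgs16 led in control TFH cells with 39.3 ± 1.43%, ahead of Rgs2 with 32.2 ± 3.77%. So the summed RPKM of the 8 genes was mostly Rgs2 and Rgs10 in control Tconv libraries and mostly Rgs16 and Rgs2 in control TFH libraries. That order depends on the lengths used. In CPM, which is not divided by length, control TFH libraries averaged 476 for Rgs2, 376 for Rgs1 and 376 for Rgs16. After treatment the share of Rgs16 in TFH cells was 55.6 ± 1.72% and that of Rgs2 14.5 ± 0.803%. In treated Treg cells Rgs1 held 29.9 ± 1.59% and Rgs2 27.4 ± 0.675%. Shares in TFR cells were 36.9 ± 0.738% for Rgs2 and 32.2 ± 0.630% for Rgs16 in controls, and 26.5 ± 0.979% and 35.3 ± 1.69% after treatment. Rgs11 stayed under 1% of the sum in all 24 libraries. GENCODE M21 gives the exons of Rgs1 as 1 block of 6947 bases that spans the whole gene, so the level of Rgs1 per length is uncertain. If that length exceeds the spliced message, the shares of Rgs1 given here are too low and those of the other genes too high.

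**Figure D2:**
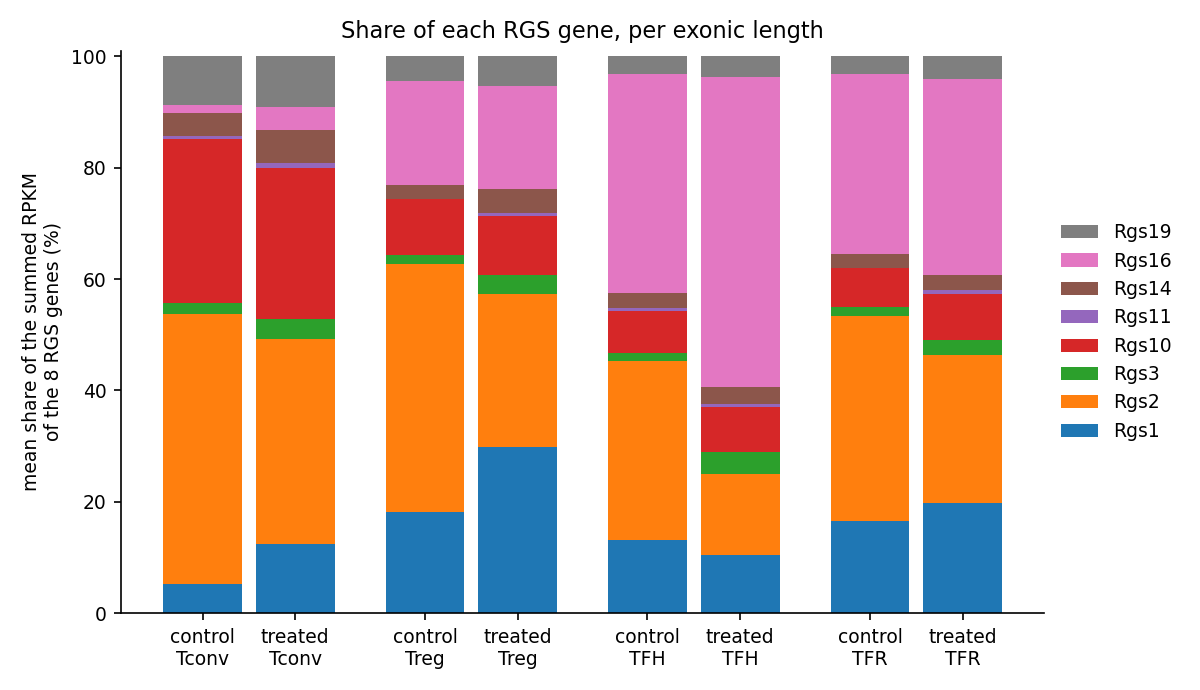
Mean share, in percent, of each gene in the summed RPKM of the 8 RGS genes, stacked for the 8 groups (mean of 3 libraries each). The Rgs16 band is thinnest in Tconv cells (1.41% in controls) and widest in treated TFH cells (55.6%), and the Rgs2 band is narrower in the treated than in the control group of every subset.

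Rgs16 (ENSMUSG00000026475.7, GRCm38 chromosome 1, 153740349 to 153745468, plus strand) encodes an R4 protein that acts on Gi and Gq alpha subunits and is induced in activated T cells. It was the member that best told Tconv cells from the others. Control Tconv libraries had 9.98, 6.96 and 8.18 CPM, control Treg libraries 221, 219 and 206 CPM, control TFH libraries 356, 403 and 370 CPM, and control TFR libraries 351, 393 and 443 CPM. No library of the first group came near the second, and the TFH and TFR values overlapped. Control Treg cells were 25.7-fold above control Tconv cells (log2FC 4.69 ± 0.15 SE, adjusted p = 9.6e-16) and control TFH cells 45.0-fold above them (log2FC 5.49 ± 0.15, adjusted p = 1.3e-16). TFR cells were 1.84-fold above Treg cells (adjusted p = 0.00013) and did not differ detectably from TFH cells (log2FC 0.07, 95% interval -0.19 to 0.33). Its exons overlap 236 bases of the antisense gene Gm28513, and since no strand setting is given, a small part of its reads is uncertain.

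Treatment was followed by higher Rgs16 in Tconv and TFH cells. Treated Tconv libraries had 37.0, 33.1 and 27.9 CPM, all above the controls (3.91-fold, log2FC 1.97 ± 0.13, adjusted p = 8.1e-10). Treated TFH libraries had 651, 673 and 567 CPM, again all above their controls (1.68-fold, log2FC 0.75 ± 0.13, adjusted p = 0.00019). Treg and TFR cells gave no such call. Treated Treg libraries, at 182, 190 and 161 CPM, lay below their controls without passing the test (log2FC -0.28 ± 0.12, adjusted p = 0.22), and treated TFR libraries, at 341, 404 and 431 CPM, overlapped theirs (log2FC -0.01, 95% interval -0.27 to 0.25). Among treated cells Treg stood 5.43-fold above Tconv (adjusted p = 1.3e-11), TFH 19.3-fold above Tconv (adjusted p = 7.8e-15), and TFR 1.61-fold below TFH (log2FC -0.68 ± 0.12, adjusted p = 0.00068). Treated TFR cells were 2.21-fold above treated Treg cells (adjusted p = 5.3e-06).

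Rgs1 (ENSMUSG00000026358.13, chromosome 1, 144242296 to 144249242, minus strand) encodes an R4 protein that dampens lymphocyte responses to chemokines. It too was lowest in control Tconv cells, with 88.0, 88.4 and 103 CPM. Control Treg libraries had 620, 618 and 613 CPM, control TFR libraries 574, 661 and 555 CPM, and control TFH libraries 304, 476 and 348 CPM. TFH libraries thus lay between Tconv and the 2 regulatory subsets, which overlapped each other. Rgs1 was 6.62-fold higher in control Treg than Tconv cells (adjusted p = 1.1e-12), 4.02-fold higher in TFH than Tconv cells (adjusted p = 9.4e-11) and 1.59-fold higher in TFR than TFH cells (adjusted p = 0.0011, lost in 2 of 14 alternatives with values up to 0.099). TFR and Treg cells did not differ detectably (log2FC -0.05, 95% interval -0.30 to 0.20).

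With treatment Rgs1 rose in the 2 non-follicular subsets. Treated Tconv libraries had 279, 317 and 282 CPM, each above every control (3.13-fold, log2FC 1.65 ± 0.12, adjusted p = 3.5e-09). Treated Treg libraries had 845, 829 and 889 CPM, also with no overlap (1.38-fold, log2FC 0.47 ± 0.12, adjusted p = 0.015). In TFH cells (402, 326 and 334 CPM treated) and TFR cells (620, 664 and 667 CPM treated) the groups overlapped, with log2FC of -0.08 (95% interval -0.34 to 0.17) and 0.12 (-0.13 to 0.38). The call in Treg cells was lost in 4 of 14 alternatives, with adjusted p up to 0.068. Among treated cells Rgs1 was 2.92-fold higher in Treg than Tconv cells (adjusted p = 6.8e-09) and 1.84-fold higher in TFR than TFH cells (adjusted p = 3.6e-05). Treated TFH cells were 1.21-fold above treated Tconv cells, which did not pass (adjusted p = 0.12).

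Rgs2 (ENSMUSG00000026360.9, chromosome 1, 143999338 to 144004161, minus strand) encodes an R4 protein with a preference for Gq alpha subunits. It was the member whose level fell with treatment, in 3 of the 4 subsets. Control Treg libraries had 797, 767 and 806 CPM and treated ones 400, 423 and 404 CPM (1.93-fold lower, log2FC -0.95 ± 0.09, adjusted p = 3.3e-07). Control TFH libraries had 489, 444 and 497 CPM and treated ones 282, 247 and 235 CPM (1.87-fold lower, log2FC -0.90 ± 0.09, adjusted p = 4.6e-07). Control TFR libraries had 631, 708 and 767 CPM and treated ones 435, 463 and 465 CPM (1.54-fold lower, log2FC -0.63 ± 0.09, adjusted p = 4.6e-05). In each of these subsets every treated library lay below every control. Tconv cells differed from that: 406, 420 and 528 CPM in controls and 435, 460 and 451 CPM after treatment overlapped (log2FC -0.01, 95% interval -0.20 to 0.19). Limma voom, 1 of the alternatives, called a small rise there. The 3 declines passed the test under every alternative run, with adjusted p up to 0.0051.

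Rgs2 also differed between subsets. In control mice it was 1.75-fold higher in Treg than Tconv cells (adjusted p = 2.1e-06) and 1.47-fold higher in TFR than TFH cells (adjusted p = 0.00052, lost in 2 of 14 alternatives with values up to 0.17). TFH and Tconv cells did not differ detectably (log2FC 0.08, 95% interval -0.11 to 0.27). Among treated cells the order was different, with TFH 1.76-fold below Tconv (adjusted p = 9.9e-07), TFR 1.79-fold above TFH (adjusted p = 2.7e-06) and no call between Treg and Tconv (log2FC -0.14, 95% interval -0.33 to 0.06).

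Rgs1 and Rgs2 are neighbours, on the same strand of chromosome 1 with Rgs13 between them. The gap from Rgs2 to Rgs13 is 134 kb and that from Rgs13 to Rgs1 64.9 kb. Rgs13 had 32 reads in all 24 libraries and was not tested. The ratio of the neighbours' reads within a library does not depend on how libraries are scaled. Control Tconv libraries had 0.217, 0.211 and 0.196 Rgs1 reads per Rgs2 read and treated ones 0.640, 0.688 and 0.624. In Treg cells the ratio was 0.778, 0.806 and 0.761 in controls and 2.11, 1.96 and 2.20 after treatment. In TFH cells it was 0.622, 1.07 and 0.702 against 1.43, 1.32 and 1.42, and in TFR cells 0.909, 0.934 and 0.724 against 1.42, 1.43 and 1.43. Within each subset every treated library had more Rgs1 per Rgs2 than every control. The 2 genes reached this by different routes: in Tconv cells Rgs1 changed, in TFH and TFR cells Rgs2, and in Treg cells both. Rgs16 lies on another stretch of the chromosome, 40 kb past Rgs8 on the plus strand.

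**Figure D3:**
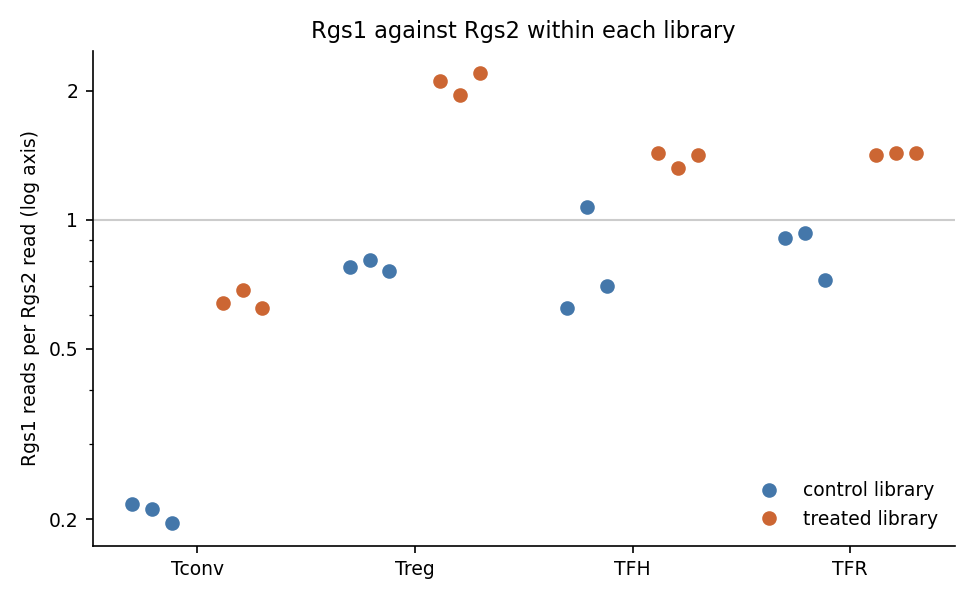
Rgs1 reads per Rgs2 read (log axis) in each of the 24 libraries, by subset, with control libraries in blue and treated ones in orange. The treated libraries lie above the controls of the same subset, from 0.624 to 0.688 in Tconv cells up to 1.96 to 2.20 in Treg cells.

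Rgs3 (ENSMUSG00000059810.18, chromosome 4, 62559847 to 62704001, plus strand) encodes a longer R4 member that acts on Gi and Gq alpha subunits. It was called higher after treatment in Tconv and TFH cells. In Tconv cells it was at 58.9, 66.4 and 45.7 CPM in controls and 137, 122 and 132 CPM after treatment (2.29-fold, log2FC 1.19 ± 0.29, adjusted p = 0.0097). In TFH cells it was at 48.0, 46.8 and 103 CPM in controls and 213, 203 and 204 CPM after treatment (3.07-fold, log2FC 1.62 ± 0.30, adjusted p = 0.00057). Neither pair of groups overlapped, and the Tconv call was lost without the 5 kidney-marked libraries (adjusted p = 0.12). Treg libraries did not overlap either (81.8, 71.9 and 93.6 against 165, 164 and 141 CPM), but the difference missed the threshold (log2FC 0.92 ± 0.29, adjusted p = 0.053). It passed under 7 of its 14 alternatives, the fit with the replicate number as a block among them (adjusted p = 0.041). Control TFR 3, at 158 CPM, lay above all treated TFR libraries (131, 136 and 143 CPM), while control TFR 1 and 2 had 62.1 and 56.5 CPM. TFR cells gave no call (log2FC 0.58 ± 0.29, adjusted p = 0.16) and a log2FC of 1.21 (adjusted p = 0.0012) without that library. Control TFH 3 was the highest of its group as well, and without it the TFH difference was 2.12 on the log2 scale.

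The R12 members behaved differently from each other. Rgs14 (ENSMUSG00000052087.13, chromosome 13, 55369732 to 55384687, plus strand), which also carries a motif that holds inactive Gi alpha subunits, rose in the non-follicular subsets. Tconv libraries had 38.6, 40.5 and 52.4 CPM in controls and 88.7, 81.1 and 86.2 CPM after treatment (1.95-fold, log2FC 0.96 ± 0.19, adjusted p = 0.0014). Treg libraries had 48.8, 47.0 and 51.4 against 79.8, 77.2 and 72.9 CPM (1.56-fold, log2FC 0.64 ± 0.19, adjusted p = 0.036). Neither overlapped, yet the Treg call was lost in 8 of 14 alternatives, with adjusted p up to 0.13, and the Tconv call without the 5 kidney-marked libraries (adjusted p = 0.45). Rgs14 in TFH cells (34.1, 60.7 and 40.4 against 67.8, 62.4 and 60.6 CPM, adjusted p = 0.060) and TFR cells (43.3, 57.7 and 77.1 against 47.6, 55.7 and 58.4 CPM, adjusted p = 0.63) overlapped and gave no call.

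Rgs10 (ENSMUSG00000030844.11, chromosome 7, 128373621 to 128418758, minus strand), a small protein that acts on Gi family alpha subunits, was not called with treatment in any subset. Its adjusted p was 0.57 in Tconv, 0.79 in Treg, 0.32 in TFH and 0.73 in TFR cells. Tconv libraries had 124, 119 and 144 CPM in controls and 163, 152 and 153 CPM after treatment, above all other 18 libraries, which ran from 26.9 to 94.1 CPM. Control TFH cells were 2.4-fold below control Tconv cells (adjusted p = 0.00076, lost in 1 of 14 alternatives at 0.053). Control Treg cells were not called against control Tconv cells (log2FC -0.60, adjusted p = 0.12). Treated Treg cells were 2.09-fold below treated Tconv cells (adjusted p = 0.0040) and treated TFH cells 2.30-fold below them (adjusted p = 0.0010).

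Rgs19 (ENSMUSG00000002458.13, chromosome 2, 181688419 to 181693977, minus strand), the RZ member and a regulator of Gi alpha subunits, had group means from 29.4 CPM in control TFH to 68.9 CPM in treated Tconv cells. Treatment gave no call in any subset (adjusted p = 0.14, 0.95, 0.12 and 0.57 in Tconv, Treg, TFH and TFR cells). TFH cells were below Tconv cells in controls (36.3, 17.4 and 34.6 against 47.3, 50.7 and 53.1 CPM, 1.69-fold, adjusted p = 0.0076) and after treatment (39.7, 38.2 and 42.3 against 72.0, 68.3 and 66.5 CPM, 1.72-fold, adjusted p = 0.0057). The control call was lost in 3 of 14 alternatives, with adjusted p up to 0.21.

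Rgs11 (ENSMUSG00000024186.15, chromosome 17, 26202951 to 26211324, plus strand), an R7 protein best known from retina and brain, was the scarcest member and the only one absent from a group. Control TFR libraries had 0 reads of 23 M together, and treated TFR libraries 10.6, 12.1 and 11.3 CPM. Against a floor of 3 reads over the control group (0.121 CPM), the treated level was at least 93.6-fold higher (adjusted p = 2.4e-07). Without control TFR 1 or 2 the floor rests on fewer reads and the bound was 54.6-fold or 58.9-fold. This bound and those below assume that Rgs11 reads follow depth, which they did not in control TFH libraries. Control TFR libraries held reads of only 11852 to 13200 genes each, against 20259 to 23011 in treated TFR libraries. Control Treg cells were the next lowest, with 1.91, 2.14 and 1.90 CPM against 7.96, 8.79 and 7.07 CPM after treatment (4-fold, log2FC 2.00 ± 0.53, adjusted p = 0.020). These groups did not overlap, but the call was lost in 7 of 14 alternatives, with adjusted p up to 0.11. Treated Tconv libraries (11.4, 12.2 and 11.3 CPM) lay above their controls (8.43, 5 and 6.21 CPM) without a call (adjusted p = 0.35). Control TFH libraries were widely spread at 7.48, 18.2 and 2.66 CPM, from 43, 47 and 39 reads in libraries of 5.74, 2.54 and 15.2 M counts, so the number of reads did not follow the depth. Treated TFH libraries had 9.39, 9.18 and 10.7 CPM (adjusted p = 0.93).

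Between control subsets Rgs11 was at least 16.4-fold higher in Treg than TFR cells (adjusted p = 6.7e-05) and at least 77.9-fold higher in TFH than TFR cells (adjusted p = 2.3e-06). The second bound was 41.8-fold without control TFH 2, 45.4-fold without control TFR 1 and 49-fold without control TFR 2, and the first 9.56-fold without control TFR 1 and 10.3-fold without control TFR 2. With only the groups compared both calls were lost (adjusted p = 0.081 and 0.20). Rgs11 was 3.29-fold lower in control Treg than Tconv cells (adjusted p = 0.044), a call lost when any 1 of the 6 libraries was left out (adjusted p up to 0.16), and without the 5 kidney-marked libraries (adjusted p = 0.47). Its exons overlap 138 bases of the antisense gene Arhgdig, so part of its reads is uncertain.

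Counted over the family, 4 members rose and 0 fell in Tconv cells, where 9.94% of tested genes were called (6.89% of tested genes higher, 3.05% lower). In Treg cells 3 rose and 1 fell (8.73% called, 5.17% higher, 3.56% lower). In TFH cells 2 rose and 1 fell (22.4% called, 16.5% higher, 5.86% lower), and in TFR cells 1 rose and 1 fell (22% called, 15.6% higher, 6.39% lower). With relative log expression factors instead of TMM, the split over all genes in Tconv cells was 1062 higher and 746 lower, against 1294 and 574. With receptor, haemoglobin and mitochondrial genes left out, it was 1152 higher and 472 lower in Treg cells, against 972 and 668. The 4 of 8 in Tconv and in Treg cells exceeded the background share, and the 2 of 8 in TFR cells was near it. By mean CPM the members stood above 76.3 to 98.8% of the tested genes, except Rgs11 (49.8%). The background shares here and below are not matched for level, so an excess over them may reflect level. Because the members were chosen with earlier results of these data known, counts here and below are a description and no test of the family. Treated and control libraries did not overlap for 7, 6, 4 and 2 members in Tconv, Treg, TFH and TFR cells, beside 43%, 46.4%, 35.3% and 43.3% of all tested genes. The members' median log2FC was 0.90 in Tconv cells (0.02 over all tested genes), 0.26 in Treg (0.08), 0.38 in TFH (0.35) and 0.13 in TFR cells (0.26). Without the 5 kidney-marked libraries, which leaves 1 control Tconv library, 2 members were called in Tconv cells (Rgs1 and Rgs16) and 1 in Treg cells (Rgs2). In Treg cells leaving out any 1 of the 6 libraries left 1 or 2 members called.

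**Figure D4:**
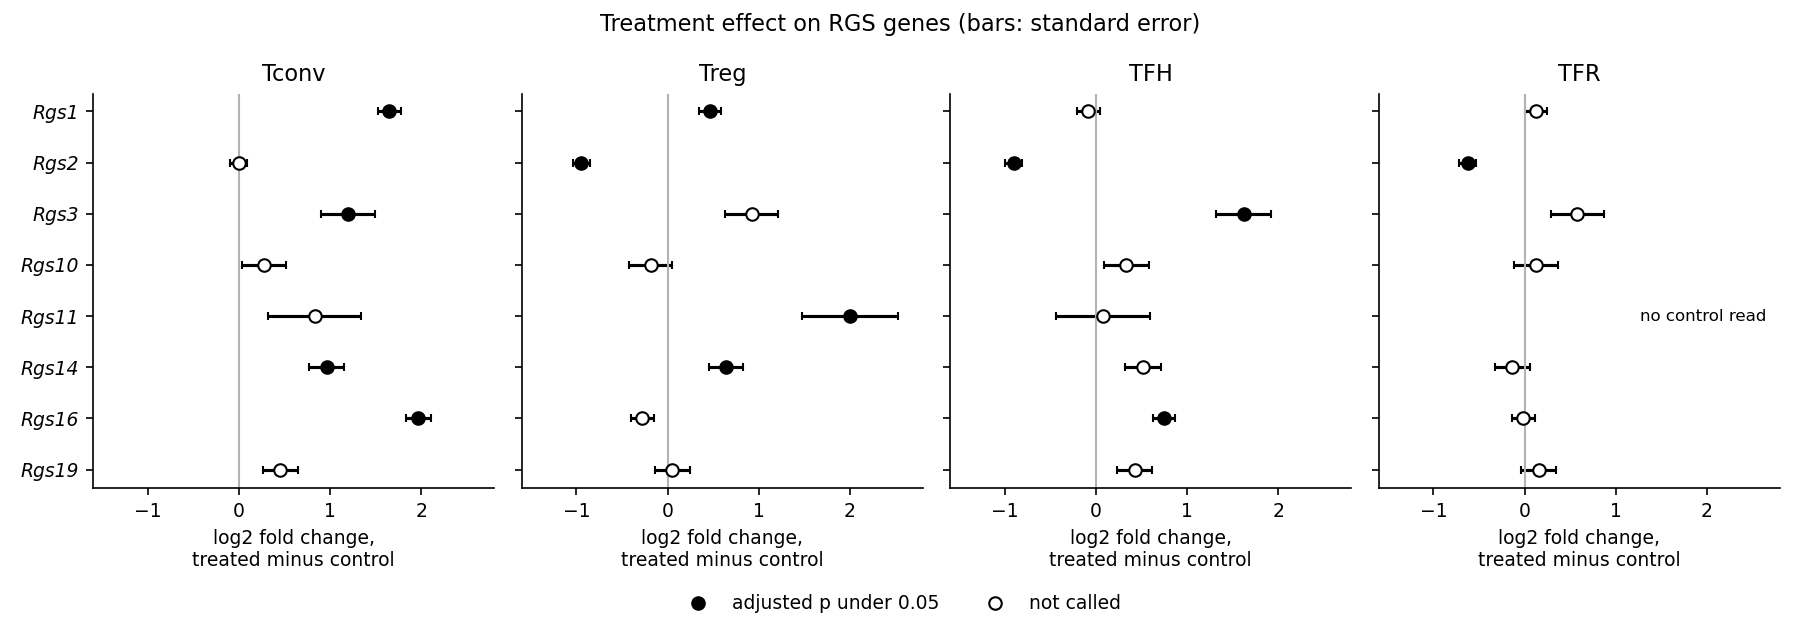
Log2 fold change of each RGS gene, treated minus control, in the 4 subsets, with bars of 1 standard error from edgeR and filled points for an adjusted p under 0.05. Rgs2 lies at -0.95, -0.90 and -0.63 in Treg, TFH and TFR cells and at -0.01 in Tconv cells. Rgs11 in TFR cells is not drawn because the controls have no read.

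Between subsets, counts of members called were 4 for Treg against Tconv (3 higher, 1 lower), 4 for TFH against Tconv (2 higher, 2 lower), 2 for TFR against Treg (1 higher, 1 lower) and 3 for TFR against TFH (2 higher, 1 lower) in control mice. Of all tested genes 9.3%, 25%, 9.75% and 15.8% were called in these comparisons, with 5.9%, 9.89%, 2.28% and 7.82% higher and 3.4%, 15.1%, 7.46% and 8% lower. In treated mice the counts were 3, 4, 1 and 3, beside 11.9%, 18.1%, 4.61% and 9.57% of all tested genes. Higher calls made up 6.37%, 10.3%, 1.78% and 4.61% of genes there and lower calls 5.54%, 7.77%, 2.83% and 4.96%. The libraries of the 2 subsets did not overlap for 6, 4, 2 and 3 members in controls (background 35%, 35%, 23.6% and 10.5%) and for 8, 8, 5 and 5 members in treated mice (background 57.9%, 54.9%, 46.3% and 41.9%). Comparisons that use the same group share its libraries and are not independent of each other.

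The effect of treatment itself was compared between subsets by interaction terms. It was smaller in Treg than Tconv cells for Rgs1 (difference in log2FC -1.18 ± 0.17, adjusted p = 0.00027) and Rgs16 (-2.24 ± 0.18, adjusted p = 1.9e-07), and more negative for Rgs2 (-0.94 ± 0.13, adjusted p = 0.00017). These 3 of 8 members compare with 2.68% of tested genes, 0.883% higher and 1.8% lower. TFH against Tconv cells gave the same 3 genes in the same direction (Rgs1 -1.73 ± 0.17, adjusted p = 2.3e-06; Rgs2 -0.90 ± 0.13, adjusted p = 0.00017; Rgs16 -1.22 ± 0.18, adjusted p = 0.00018), where 19.6% of tested genes were called. The 2 contrasts share the Tconv libraries. TFR cells differed from TFH cells for Rgs16 (-0.76 ± 0.18, adjusted p = 0.013, lost in 2 of 20 alternatives with values up to 0.24) and Rgs11 (adjusted p = 7e-05), beside 7.05% of genes, and from Treg cells for Rgs11 (adjusted p = 0.00025), beside 7.49%.

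The genes whose levels ran most like each member's were sought among 9663 protein-coding genes with a mean of at least 5 CPM, by Pearson's r of log2 CPM over the 24 libraries. The r is a description over libraries that share subset, treatment and depth. For Rgs16 they were Tox (r = 0.974), Runx2 (0.967) and B4galnt4 (0.966). Tox is a transcription factor of chronically stimulated and follicular T cells. For Rgs1 they were Cd5 (0.955), a damper of T cell receptor signalling, the chemokine receptor Cxcr3 (0.937) and Fam129a (0.931). Rgs2 ran most like Gnb4 (0.905), a G protein beta subunit, Rpap3 (0.899) and Emb (0.888). After the group means were taken out, r was -0.23 for Rgs16 with Tox, 0.06 for Rgs1 with Cd5 and 0.09 for Rgs2 with Gnb4, but 0.509 for Rgs1 with Cxcr3 and 0.734 for Rgs2 with Emb. Rgs19 with Pced1b (0.953) and Rgs14 with Cyth1 (0.863) kept r of 0.924 and 0.852 within groups. Rgs3 ran most like Ephx1 (0.895), Rgs10 like Pknox1 (0.913) and Rgs11 like Pnn (0.907). Among the members themselves Rgs1 and Rgs16 had r = 0.758 and Rgs10 and Rgs16 r = -0.752.

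Upstream of the RGS proteins, 25 receptors of lymphocytes were tested. With treatment 10 rose and 1 fell in Tconv, 2 rose and 7 fell in Treg, 7 rose and 7 fell in TFH, and 6 rose and 6 fell in TFR cells. Of all tested genes 9.94%, 8.73%, 22.4% and 22% were called in these 4 comparisons, which is the background for this list and those below. The receptors' median log2FC was 0.61, 0.19, 0.27 and -0.07, beside 0.02, 0.08, 0.35 and 0.26 over all tested genes. Ccr7, the receptor that draws naive T cells into lymph nodes, fell from 758 ± 30.0 to 183 ± 14.1 CPM in Treg cells (log2FC -2.05, adjusted p = 1.3e-11), and it fell in TFH (-1.38, adjusted p = 5.6e-09) and TFR cells (-0.79, adjusted p = 1.3e-05). Ccr7 in Tconv cells was at 1218 ± 193 in controls and 1081 ± 40.9 CPM after treatment and gave no call (adjusted p = 0.34). These are the subsets in which Rgs2 fell. Cxcr3, a receptor of inflammatory chemokines, rose in Tconv cells only among the calls, from 4.90 ± 0.666 to 29.8 ± 1.27 CPM (adjusted p = 1.2e-11). Cxcr5, the follicle-homing receptor whose protein was used for sorting, rose in all 4 subsets, in TFH cells from 121 ± 22 to 261 ± 20.9 CPM (adjusted p = 0.0014). The prostaglandin E2 receptor gene Ptger2 rose in Tconv cells (log2FC 1.44, adjusted p = 6.4e-07) and fell in TFH (-0.52, adjusted p = 0.013, lost in 4 of 14 alternatives with values up to 0.19) and TFR cells (-0.94, adjusted p = 5.8e-05).

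Of 13 alpha subunits, the direct substrates of RGS proteins, 3 rose and 2 fell in Tconv, 0 rose and 2 fell in Treg, 1 rose and 3 fell in TFH, and 2 rose and 2 fell in TFR cells, with a median log2FC of -0.20, 0.02, 0.39 and 0.23. Gnai2, the main Gi subunit of lymphocytes, rose from 352 ± 32.6 to 594 ± 40.7 CPM in TFR cells (log2FC 0.76, adjusted p = 1e-06) and from 398 ± 11 to 562 ± 40.4 CPM in TFH cells (0.50, adjusted p = 0.00020, and 0.21 with limma voom). Gnai2 in Treg cells was at 457 ± 24.8 and 544 ± 33.5 CPM (adjusted p = 0.062). Gna13, an alpha subunit of the G12 class, rose in Tconv cells (log2FC 0.42, adjusted p = 0.0036) and fell in TFH cells (-0.46, adjusted p = 0.0010), Treg (-0.34, adjusted p = 0.020) and TFR cells (-0.29, adjusted p = 0.027). The Gna13 call was lost in 7 of 14 alternatives in Treg (adjusted p up to 0.10), in 6 of 14 in TFR (up to 0.15) and, in Tconv cells, without the 5 kidney-marked libraries (0.23, adjusted p = 0.54). Gnaq, the Gq subunit, and Gna12 fell in Tconv cells (log2FC -2.12 and -1.45), but without the 5 kidney-marked libraries these values were -0.33 and -0.75 and neither was called.

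Of 12 tested beta and gamma subunits 1 rose and 2 fell in Tconv, 0 rose and 1 fell in Treg, 0 rose and 1 fell in TFH, and 1 rose and 1 fell in TFR cells, with a median log2FC of -0.54, -0.11, -0.04 and 0.12. The share called was near the background in Treg cells and below it in TFH and TFR cells, on counts of 1 or 2 genes. The 2 that fell in Tconv cells were Gnb1 (log2FC -0.82, adjusted p = 0.032), lost in 6 of 14 alternatives and at -0.12 without the 5 kidney-marked libraries, and Gng4, lost in 8 of 13. Gnb4 was the one that fell in the last 3: from 103 ± 5.46 to 45.8 ± 2.50 CPM in Treg (log2FC -1.17, adjusted p = 0.00043), from 47.2 ± 19.2 to 15.3 ± 0.545 CPM in TFH (-1.64, adjusted p = 6.9e-06) and from 114 ± 25.8 to 35.8 ± 3.78 CPM in TFR cells (-1.67, adjusted p = 4.3e-06). In Tconv cells Gnb4 gave no call (adjusted p = 0.48). Gnb4 thus changed in the same subsets and direction as Rgs2. Gng2, a gamma subunit, rose in Tconv cells from 17.6 to 58.2 CPM (adjusted p = 7.6e-07).

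Receptor kinases and arrestins, which switch off the receptor itself, mostly rose where called: 3 rose and 1 fell of 7 in Tconv, 3 and 0 in Treg, 4 and 0 in TFH, and 3 and 0 in TFR cells, with a median log2FC of 0.36, 0.58, 0.53 and 0.58. Grk2, Grk6 and Arrb2 rose in all 4 subsets. Arrb2 (beta-arrestin) rose from 93.2 ± 12.1 to 187 ± 8.32 CPM in Tconv cells (adjusted p = 1.2e-06) and by log2FC of 0.86, 0.94 and 1.05 in Treg, TFH and TFR cells. Grk6 rose by log2FC of 0.85, 0.68, 1.13 and 0.65 in Tconv, Treg, TFH and TFR cells, and Grk2 by 0.69, 0.47, 0.53 and 0.58. Without the 5 kidney-marked libraries Grk6 in Tconv cells was not called (0.72, adjusted p = 0.13). The gene of this list that fell in Tconv cells was Grk5 (-2.08, adjusted p = 0.014), lost in 6 of 14 alternatives and at -0.68 without those libraries. The rise of Grk5 in TFH cells (adjusted p = 0.016) was lost in 5 of 14. Of 6 other regulators of G proteins 0 rose and 0 fell in Tconv, 0 and 1 in Treg, 1 and 0 in TFH, and 1 and 1 in TFR cells, with a median log2FC of -0.06, -0.20, 0.33 and -0.27. Gpsm3, which binds Gi alpha subunits, rose in TFH cells (log2FC 1.24, adjusted p = 0.0043, and 0.15 with only the groups compared).

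**Figure D5:**
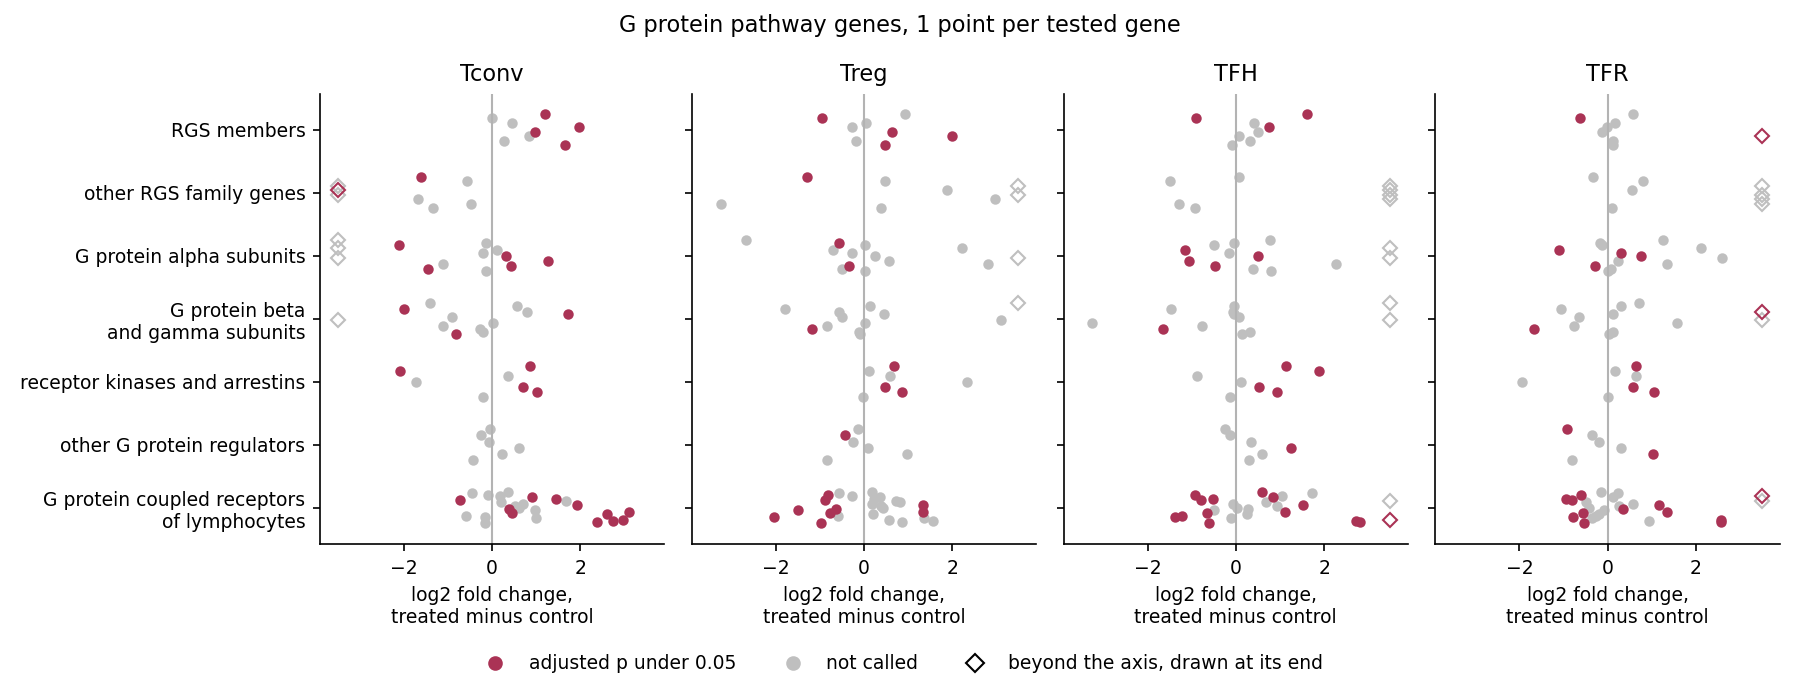
Log2 fold change, treated minus control, of each tested gene of the 7 lists of G protein pathway genes in the 4 subsets, 1 point per gene, red where the adjusted p is under 0.05. The receptors hold 10 higher and 1 lower call in Tconv cells and 2 higher and 7 lower in Treg cells, and the receptor kinases and arrestins hold at most 1 lower call in a subset.

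Among 13 other RGS genes 8 could be tested. With treatment 2 fell in Tconv cells (Rgs9 and Rgs6), 1 in Treg cells (Rgs9), and none was called in TFH or TFR cells or rose anywhere. Rgs9, an R7 relative of Rgs11, was at 38.6 ± 2.36 CPM in control and 15.7 ± 0.768 CPM in treated Treg cells (log2FC -1.30, adjusted p = 7.5e-05), the opposite direction to Rgs11. In Tconv cells the fall of Rgs9 (adjusted p = 1.8e-05) was not called without the 5 kidney-marked libraries (log2FC -0.98, adjusted p = 0.12). It was at 72.7 ± 2.79 CPM in control TFH, 72.6 ± 13.5 CPM in control TFR and 2.54 ± 0.786 CPM in control Tconv cells. Rgs6 was at 3.84 CPM in control and had no read in treated Tconv cells (adjusted p = 0.030, lost in 5 of 12 alternatives). Of its 719 reads 88.9% came from the 5 kidney-marked libraries, as did 98.9% of 356 for Rgs5 and all 365 for Rgs7, against 24% of all reads. Those 2 genes, Rgs4, Rgs8, Rgs12 and Rgs18 gave no call with treatment. Rgs13, Rgs17, Rgs20, Rgs21 and Rgs22 were too low to be tested, with 15 to 88 reads each in all 24 libraries.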

How the data were processed

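RNA of 24 libraries was depleted of ribosomal RNA and sequenced from total RNA with the CORALL kit, per the labels' protocols. The deposited values are whole counts of reads per gene that the authors made with STAR and featureCounts on mm10, per the submitters' processing notes; the sources used here do not give versions, strand setting or annotation. Of 39056 gene identifiers, 38872 matched GENCODE M21 with version suffixes left off. Genes were filtered with filterByExpr, scaled with TMM factors and tested with edgeR 4.0.16 (R 4.3.3) by the quasi-likelihood F test, with 8 group means over all libraries and Benjamini-Hochberg adjustment over 18789 genes. There were 16 comparisons: treatment in each subset, subset pairs in control and in treated mice, and interactions. RPKM divides CPM by the exonic length in GENCODE M21. Motif and promoter windows come from RefSeq (GRCm38.p6). The text names the members, at most the 4 genes of each list with the smallest p over the 4 treatment comparisons, other RGS genes that passed the filter, and for each member up to 3 genes with the highest Pearson's r. The alternatives were other scaling, no filter, DESeq2 1.42.0, limma 3.58.1 (voom), fewer groups, a replicate block, gene classes or libraries left out. The test was checked on simulated counts. The members and lists were chosen with earlier results of these data known.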

Additional observations from a re-analysis of the deposited data

Results flagged for a closer look

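The treatment effect differed between subsets, by interaction terms in edgeR, for 4 of the 8 RGS genes. Against Tconv cells, the treatment log2FC in Treg cells differed by -1.18 for Rgs1, -0.943 for Rgs2 and -2.24 for Rgs16. Against Tconv cells, that in TFH cells differed by -1.73 for Rgs1, -0.898 for Rgs2 and -1.22 for Rgs16. Both sets share the Tconv libraries, of which control Tconv 1 and 2 carry kidney transcripts. Rgs16 also differed between TFR and TFH cells, by -0.758, a call lost in 2 of 20 alternatives (adjusted p up to 0.24). Rgs11 differed between TFR and Treg cells (adjusted p = 0.00025) and between TFR and TFH cells (adjusted p = 7e-05). The control TFR libraries had no Rgs11 read.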

How the results depend on the processing

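The 46 called member differences kept their direction in all 698 alternative values, and 656 of these also kept the call. The 46 called differences of named pathway genes kept the call in 565 of 641. Rgs6 had no read left in Tconv cells without the 5 kidney-marked libraries, so no value is given there. The number of members called by treatment in Tconv cells was 8 with limma voom and 2 without the 5 kidney-marked libraries, against 4, where 55.9% and 2.86% of all genes were called. In Treg cells it was 1 without them (4.88% of genes) and 1 to 2 with any 1 library left out, against 4. With limma voom it was 7 for Treg against Tconv in controls, 1 for TFR against TFH in controls, 8, 7 and 7 for Treg against Tconv, TFH against Tconv and TFR against Treg in treated mice, and 7, 2 and 1 for the interactions of Treg with Tconv, TFR with Treg and TFR with TFH. Of all genes limma voom called 42.1% and 0.341% in these control pairs, 54.3%, 44.7% and 41.3% in the treated pairs, and 37.1%, 7.08% and 0.245% in the interactions. With only the groups compared it was 2, 1 and 0 for TFH against Tconv, TFR against Treg and TFR against TFH in controls, 6 and 7 for Treg against Tconv and TFR against Treg in treated mice, and 4 and 1 for the interactions of TFR with Treg and with TFH, beside 11.9%, 3.52%, 0.564%, 60.4%, 41.3%, 15% and 0.53% of all genes. TFR against Treg in treated mice gave 2 with no filter and 3 with DESeq2, against 1. The interaction of TFR with Treg gave 2 with relative log expression factors and with DESeq2, and 1 to 2 with 1 library left out. The cause was not tested.

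Values that changed sign were all uncalled in the results above. With limma voom the treatment log2FC was 0.12 for Rgs2 in Tconv, 0.066 for Rgs1 in TFH, and 0.050 for Rgs14 and 0.080 for Rgs16 in TFR cells. The first of these was a called rise, since limma voom called all 8 members in Tconv cells. Rgs16 in TFR cells was 0.092 with receptor, haemoglobin and mitochondrial genes left out and 0.091 without the 5 kidney-marked libraries. Rgs2 for TFH against Tconv in controls was -0.15 without those libraries. Rgs1 for TFR against Treg in controls was 0.037 with relative log expression factors and with DESeq2. Rgs2 for Treg against Tconv in treated mice was 0.0060 with those gene classes left out. With 1 library left out, treatment log2FC ran from -0.074 to 0.13 for Rgs2 in Tconv, -0.025 to 0.15 for Rgs19 in Treg, -0.21 to 0.12 for Rgs1 in TFH, -0.38 to 0.96 for Rgs11 in TFH, -0.060 to 0.42 for Rgs10 in TFR, -0.31 to 0.10 for Rgs14 in TFR and -0.084 to 0.085 for Rgs16 in TFR cells. Rgs16 for TFR against TFH in controls ran from -0.015 to 0.15.

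Correlations of same-numbered libraries ran from -0.926 to 0.873, and in 0 of 12 comparisons were all above 0.1. All values outside -0.165 to 0.167 came from treated TFR against treated Treg or treated TFH cells. Kidney transcripts stood out in a library of each of these groups, under another replicate number in TFR than in Treg and TFH cells. Their part in the correlations was not tested, so the check cannot decide whether same-numbered libraries came from the same mice. With the replicate number as a block, 45 of 46 member calls held, Rgs11 for Treg against Tconv in controls was lost (-1.74, adjusted p = 0.057) and Rgs3 in Treg cells was gained (0.95, adjusted p = 0.041).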
